A study of Mus musculus with 4 samples.

Results

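The serpin family was followed across 4 mouse samples hybridised to Agilent single-colour expression arrays, 1 array per sample. Its members were every non-control probe whose gene name in the scanner files begins with Serpin, whatever its signal. This gave 78 probes for 61 genes, of 30419 genes named on the array. A further 8 RefSeq symbols that begin with Serpin had no probe named for them. These were Serpina16, Serpina1b, Serpina3d-ps, Serpina3e-ps, Serpina3l-ps, Serpinb1-ps1, Serpinb9h and Serpine3. The probes representing Serpina1c and Serpina1d are also listed for Serpina1b, which was thus not measured apart from them.

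The study asked how a mouse gene it calls A, not named further in the labels, relates to ligament formation. The stem cell sample was a culture of C3H mesenchymal stem cells derived from mouse embryos and supplied by a cell bank. The transfected tissue was ligament-like tissue obtained after the same cells received A in the plasmid pCAGGS, a vector with a broadly active promoter. The other samples were ligament of wild type C57BL/6J mice and ligament of C57BL/6J mice transgenic for A, made by introducing the pCAGGS-A plasmid into fertilized eggs. Age, sex, the ligament sampled and any pooling of animals are not given in the sources used here. Strain and origin differ together between cells and ligament and cannot be told apart there. No sample of the cells carrying the plasmid without A is among the 4. In culture, A, the transfection and the change to tissue thus differ together and cannot be told apart. The words with and without A below name samples and not an effect of A. With 1 array per group there was no replicate check, so differences are given as sizes, without tests, and apply to these 4 RNA samples.

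Serpins are proteins with a shared fold in which most members act as suicide inhibitors: the target protease cleaves an exposed reactive loop, the serpin snaps into a new shape, and the protease is trapped in a covalent complex. Secreted members control clotting, fibrinolysis, complement and leukocyte proteases, while clade B members lack a classical signal peptide and mostly protect cells from proteases inside them. Some members inhibit nothing, among them the collagen chaperone HSP47, encoded by Serpinh1. In mice several human single-copy serpins have expanded into clusters of near-identical genes, above all the Serpina1 and Serpina3 genes on chromosome 12 and the Serpinb genes on chromosomes 1 and 13.

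Levels below are log2 processed signal minus log2 of the array's own 75th percentile, called normalised signal, and they can be compared for a gene between arrays but not between genes. That percentile was a signal of 1165 in stem cells, 2272 in transfected tissue, 285 in the wild type ligament and 303 in the A-transgenic ligament. The lowest normalised signal that the scanner software marked as well above background was -5.79, -5.71, -3.41 and -3.90 in the same order, so the cell arrays reached lower levels than the ligament arrays. Repeat spots of a probe on an array differed by an SD of 0.0664 to 0.187 on the log2 scale, an error that covers spots and not cultures or animals. All 4 arrays lay on 1 slide.

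The labels were checked against marker lists. Of 8 tendon and ligament markers, 8 were well above background in stem cells, 7 in transfected tissue, 7 in the wild type and 8 in the transgenic ligament, and in transfected tissue against stem cells 0 were higher and 2 lower by 2-fold or more. Of 9 mesenchymal markers, 8 were well above background in each cell sample. Of 6 adipocyte markers, 5 had a value in transfected tissue against stem cells, with 4 higher and 0 lower (median 4.03), among them Cfd, the secreted protease adipsin, at least 52.3-fold and Adipoq, the fat hormone adiponectin, at least 22.1-fold. Their part in the serpin differences in culture was not tested. The ligament samples also carried RNA of other tissues: 7 of 7 skeletal muscle markers on the array and 8 of 8 neutrophil markers were well above background in both, and epidermis markers in 7 and 8 of 8. Between the ligaments, 6 of 8 epidermis markers and 6 of 8 tendon markers were higher, and 8 of 8 neutrophil, 6 of 6 erythroid, 4 of 5 platelet and 4 of 8 mast cell and eosinophil markers with a value lower, in the transgenic sample. In bulk samples like these, fewer cells of a type and less RNA per cell cannot be told apart.

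Several serpin genes are so alike that an array probe may bind transcripts of more than its own gene. The probes are 60 bases long, and 7 pairs among 9 serpin genes lay within 12 edits of each other or shared a run of at least 25 bases. The 30-base windows below show some of these pairs, and capitals mark bases that differ between the pair. For Serpina3i and Serpinb6c the window is from the gene's dimmer probe, which is not the one that represents the gene below.
Serpina1c probe: taaGatgtcatccttccttctgaattgggt
Serpina1a probe: taaAatgtcatccttccttctgaattgggt
Serpina3h probe: cacaggGgtcaaaTtAaTtctaTgttgtgA
Serpina3i probe: cacaggAgtcaaaGtTaAtctaCgttgtgG
Serpinb6c probe: tgcaatgAcaGCtatgaaataaagggcttA
Serpinb6a probe: tgcaatgGcaATtatgaaataaagggcttT
The Serpina1c and Serpina1a probes shared a run of 47 bases, and the accessions listed for the Serpina1c probe belong to Serpina1a, Serpina1b, Serpina1c and Serpina1e. The Serpina3h and Serpina3i probes were 11 edits apart, and those shown for Serpinb6c and Serpinb6a 6 edits apart. Values of these genes are therefore given as those of a probe, with the split between paralogues uncertain.

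Of the 61 serpin genes, 31 were well above background in stem cells, 31 in transfected tissue, 24 in the wild type and 29 in the transgenic ligament. On at least 1 array 40 were detected in this sense, which is 65.6% of the family and also 65.6% of all genes on the array. On all 4 arrays 20 were. The 21 detected nowhere included Serpinc1 (antithrombin), Serpind1 (heparin cofactor II), Serpinf2 (antiplasmin), Serpina5 (protein C inhibitor) and Serpina6 and Serpina7, the plasma carriers of corticosteroids and thyroxine. The remaining 15 were Serpina12, Serpina3a, Serpina3k, Serpina3m, Serpinb11, Serpinb12, Serpinb13, Serpinb3a, Serpinb3d, Serpinb9c, Serpinb9d, Serpinb9e, Serpinb9f, Serpinb9g and Serpini2. Hepatocyte markers, genes of the organ that secretes most plasma serpins, were well above background for 2, 2, 1 and 1 of 7 genes on the 4 arrays.

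**Figure D1:**
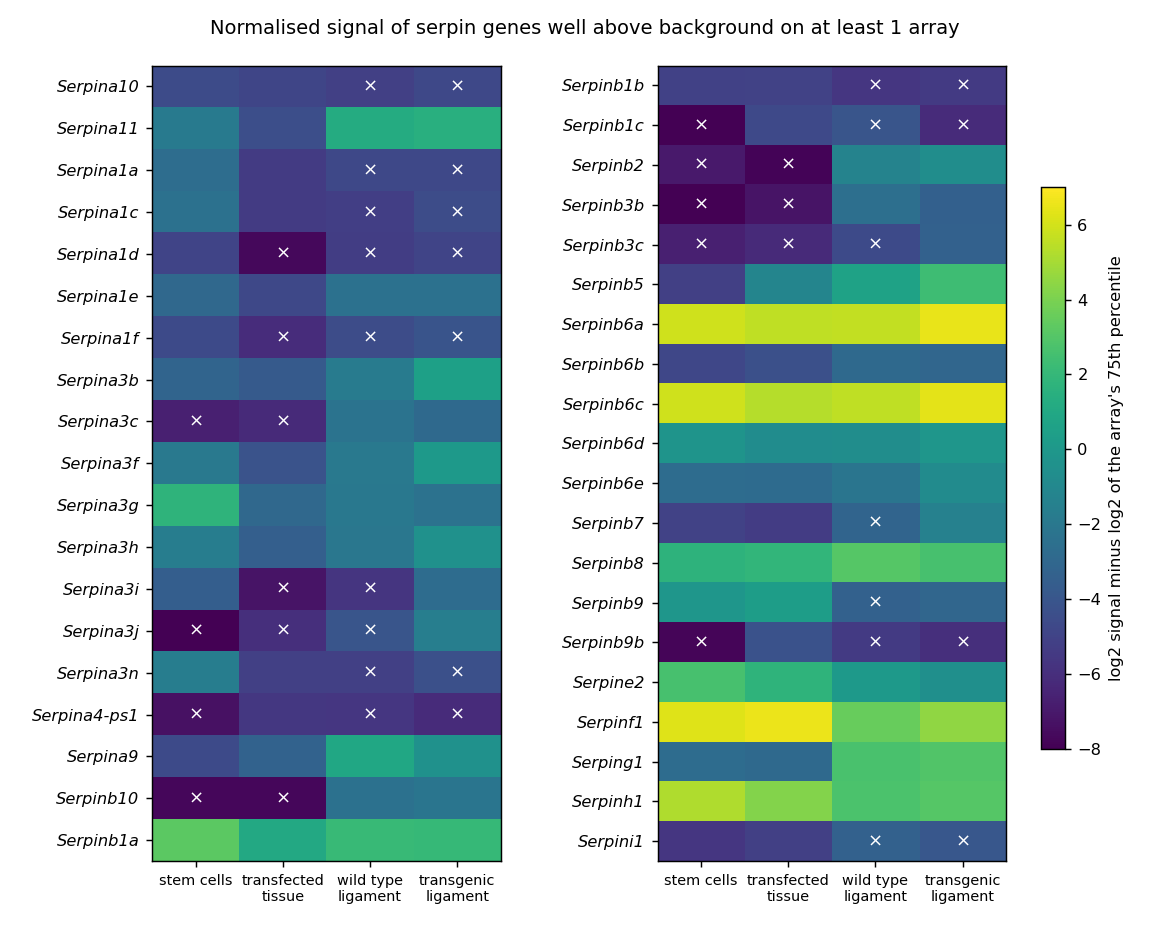
Normalised signal (colour, log2) of serpin genes detected on at least 1 array, with the 4 arrays as columns; a white cross marks a value not well above background, and colours are to be compared within a row. Serpina3g is brightest in stem cells, whereas Serpinb2, Serpinb3b, Serpinb10 and Serpina3c are well above background in ligament only.

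Between the 2 samples in culture, the family lay mostly on the lower side in transfected tissue. Of 34 serpin genes with a value in transfected tissue against stem cells, 12 were lower and 4 higher by 2-fold or more, bounds included. Of all 17902 genes compared, 13.3% were lower and 10.9% higher. The median log2 difference was -0.51 over the serpins and -0.08 over all genes. Between the ligaments, the balance lay on the other side. Of 29 serpin genes with a value in transgenic against wild type ligament, 8 were higher and 1 lower, where 6.29% of all 16426 genes were higher and 7.05% lower. The median was 0.29 over the serpins and -0.03 over all genes. With a normexp background correction the higher serpins numbered 1 in culture and 4 in ligament: Serpina9, Serpinb1c and Serpinb9b in the former and Serpina3h, Serpina3j, Serpinb6e and Serpinb7 in the latter no longer reached 2-fold. Paralogues that share probe sequence are counted separately here, so these counts hold fewer independent genes than their number.

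Cells and ligament differed more than samples with and without A did. In wild type ligament compared with stem cells, 11 of 28 serpin genes were higher and 9 lower, where 37.7% of all genes were higher and 24.5% lower. In transfected tissue against wild type ligament, 5 of 25 were higher and 15 lower, where 23% of all genes were higher and 39.7% lower. These comparisons share the wild type array with each other and with the comparison of the ligaments, and each shares a cell array with the comparison in culture.

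**Figure D2:**
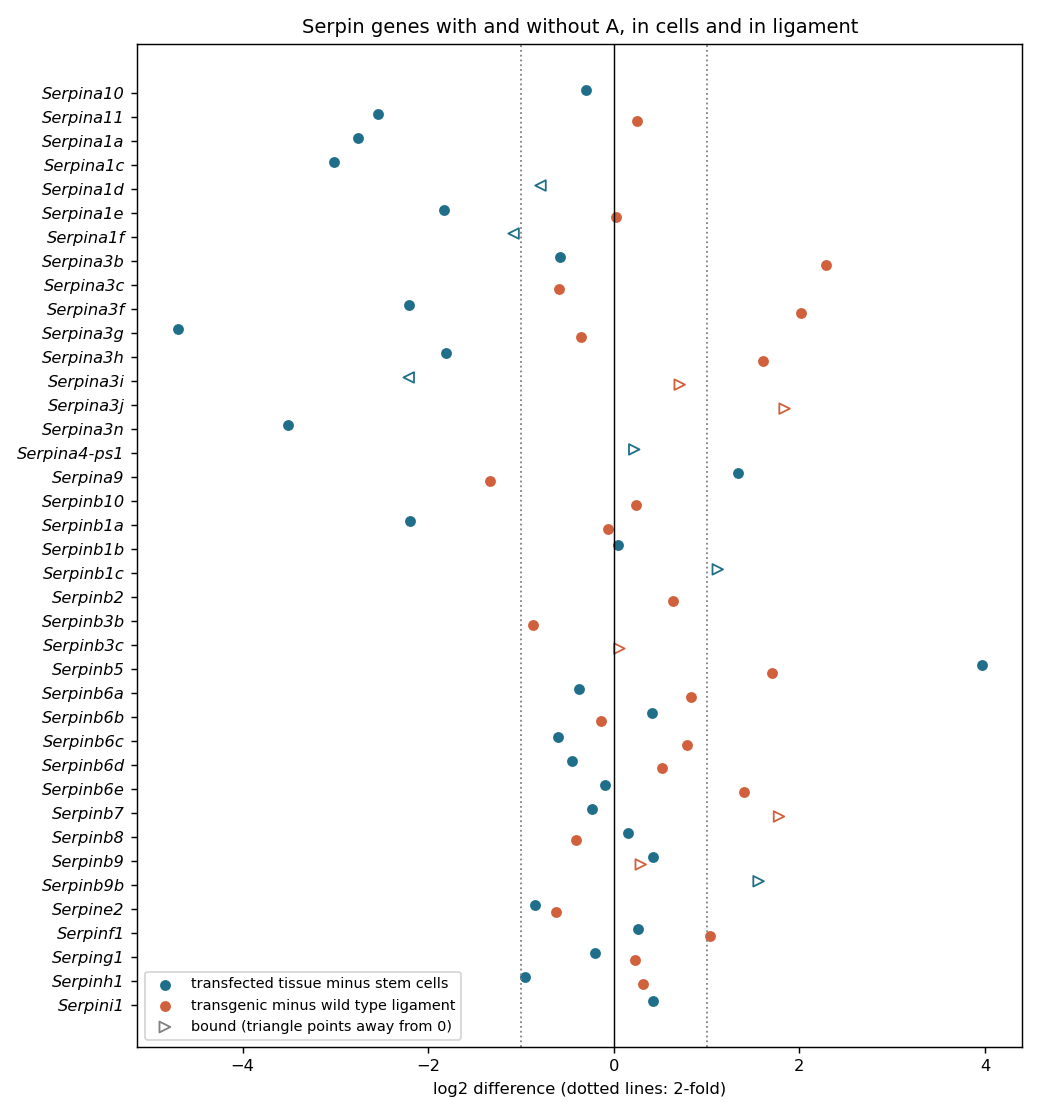
Log2 differences of serpin genes for transfected tissue minus stem cells (blue) and transgenic minus wild type ligament (orange), 1 array per group, with no error bars since there are no replicates; open triangles are bounds and dotted lines mark 2-fold. Serpina3g (-4.70) lies farthest to the left in culture, Serpinb5 (3.97) farthest to the right, and Serpina3b (2.29) farthest to the right in ligament, where bounds are minimum sizes.

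Serpine2 encodes protease nexin-1, an extracellular inhibitor of thrombin and plasminogen activators. Its signal was 2.61, 1.77, 0.10 and -0.52 in the order stem cells, transfected tissue, wild type and transgenic ligament. Both cell samples lay above both ligaments, with -0.85 in transfected tissue against stem cells and -0.62 in transgenic against wild type ligament, both within 2-fold. Wild type ligament was 5.71-fold below stem cells. Serpinb2 encodes PAI-2, an inhibitor of urokinase. It was not well above background on either cell array and stood at -1.30 and -0.67 in wild type and transgenic ligament. Wild type ligament was at least 22.4-fold above stem cells for Serpinb2. These inhibitors were thus split between cells and ligament: Serpine2 had its highest value in stem cells, and Serpinb2 was measured in ligament only.

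Genes of plasminogen activation, among them proteases that these serpins inhibit, were followed as a list of 9 genes. In transfected tissue against stem cells 8 had a value, of which 2 were higher and 3 lower. Plaur, the urokinase receptor, stood at 1.87 in stem cells and -1.26 in transfected tissue, a log2 difference of -3.13. Plau, urokinase itself, differed by -2.26 and Lrp1, an endocytic receptor that clears serpin-protease complexes, by 1.43. In transgenic against wild type ligament 0 were higher and 2 lower of 7, namely Plaur at -2.19 and Plau at -1.20, while Serpine2 and Serpinb2 stayed within 2-fold. Plat, tissue plasminogen activator, Vtn, the adhesive plasma protein vitronectin, and Anxa2, a cell-surface receptor of plasminogen, were picked for the plot after their values were seen. Plat was well above background in both cell samples, at -0.25 and 0.40, and in neither ligament.

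**Figure D3:**
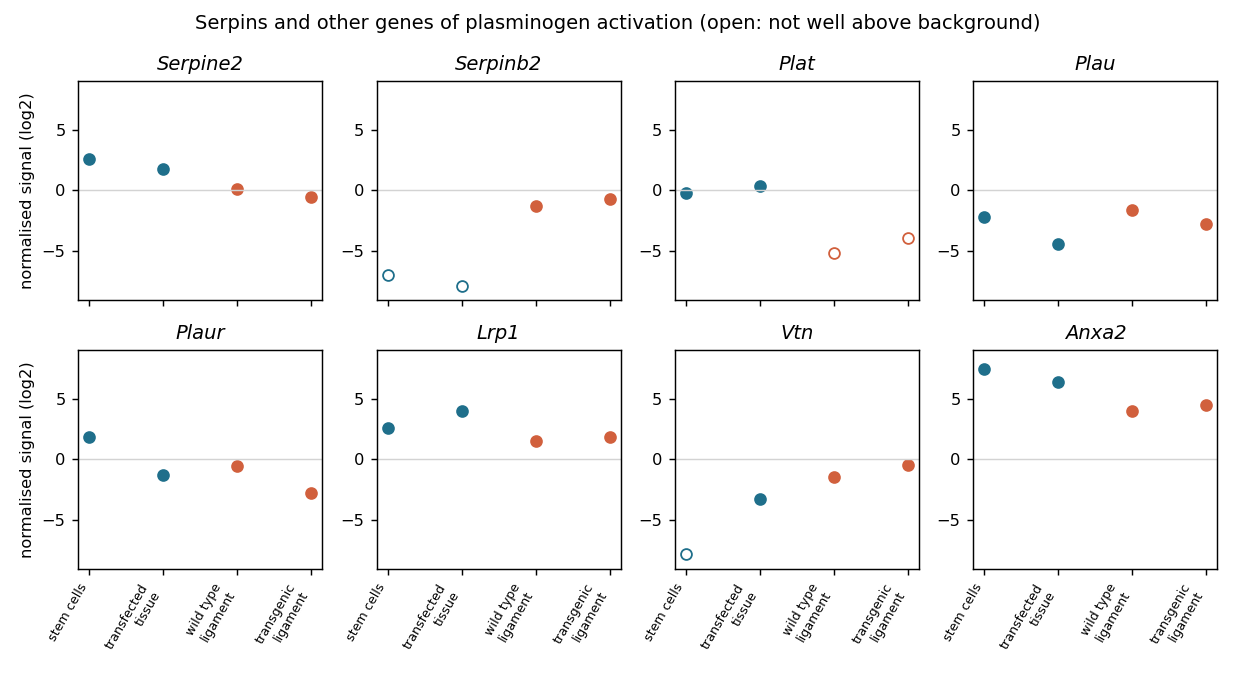
Normalised signal (log2) of 2 serpins and 6 other genes of plasminogen activation on the 4 arrays, cells in blue and ligament in orange; open circles are values not well above background. Plau and Plaur are each lower in transfected tissue than in stem cells, and both also lower in transgenic than in wild type ligament.

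Serpinh1, the endoplasmic reticulum chaperone of procollagen, was well above background everywhere. Its signal was 5.19 in stem cells, 4.23 in transfected tissue, 2.74 in the wild type and 3.05 in the transgenic ligament, so both cell samples lay above both ligaments. The difference was -0.96 in transfected tissue against stem cells and 0.31 between the ligaments, both within 2-fold, and wild type ligament was 5.48-fold below stem cells. A list of 11 collagens and collagen-modifying enzymes gave 1 higher and 3 lower of 11 in transfected tissue against stem cells, 1 higher and 0 lower between the ligaments, and 0 higher and 6 lower of 10 in wild type ligament compared with stem cells. In that last comparison Col5a1, a fibril-nucleating collagen chain, differed by -4.61, Fkbp10, a prolyl isomerase that works on collagen with HSP47, by -4.30, and P4hb, a subunit of prolyl hydroxylase, by -2.46. These 3 are the largest differences of the list and stood beside -2.45 for Serpinh1. The major fibrillar chains, added after their values were seen, lay within 2-fold there: Col1a1 differed by 0.81, Col3a1 by -0.74 and Col1a2 by -0.82.

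Serpinf1 encodes PEDF, a secreted non-inhibitory serpin known for blocking vessel growth. Its representative probe read 6.29 in stem cells, 6.55 in transfected tissue, 3.49 in the wild type and 4.53 in the transgenic ligament. The cell samples lay above the ligaments, and transgenic ligament was 2.06-fold above wild type (1.04). The other Serpinf1 probe, 5.58 kb farther toward the gene's 5′ end, read 4.45, 4.89, -0.96 and 0.05. On these probes the cultures differed by 0.26 and 0.44 and the ligaments by 1.04 and 1.01. The culture value depended on the scaling: with quantile normalization the representative probe gave 1.16, and with the deposited value table it was also past 2-fold. Wild type ligament against stem cells, however, was -2.80 on the representative probe and -5.41 on the other. This spread of 2.61 between probes of a gene was the largest in that comparison among the 4 serpins measured on several probes, and whether transcript forms or the state of the RNA move with it was not tested.

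Serping1 encodes the C1 inhibitor, which controls the first complement proteases and plasma kallikrein. It was low in the cells and high in the tissue: -2.68 in stem cells, -2.87 in transfected tissue, 2.67 in the wild type and 2.90 in the transgenic ligament. Wild type ligament was 40.7-fold above stem cells, or 5.35 on the log2 scale, and 4.29 on the gene's other probe. Transfected tissue lay on the side of its parent cells, 46.6-fold below wild type ligament. The target proteases C1ra and C1s1, chosen here as its substrates after their values were seen, ran the opposite way between these samples, with -2.10 and -1.99 in wild type ligament compared with stem cells. In transfected tissue against stem cells C1s1 differed by 1.92 and C1ra by 1.33, while Serping1 differed by -0.20.

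**Figure D4:**
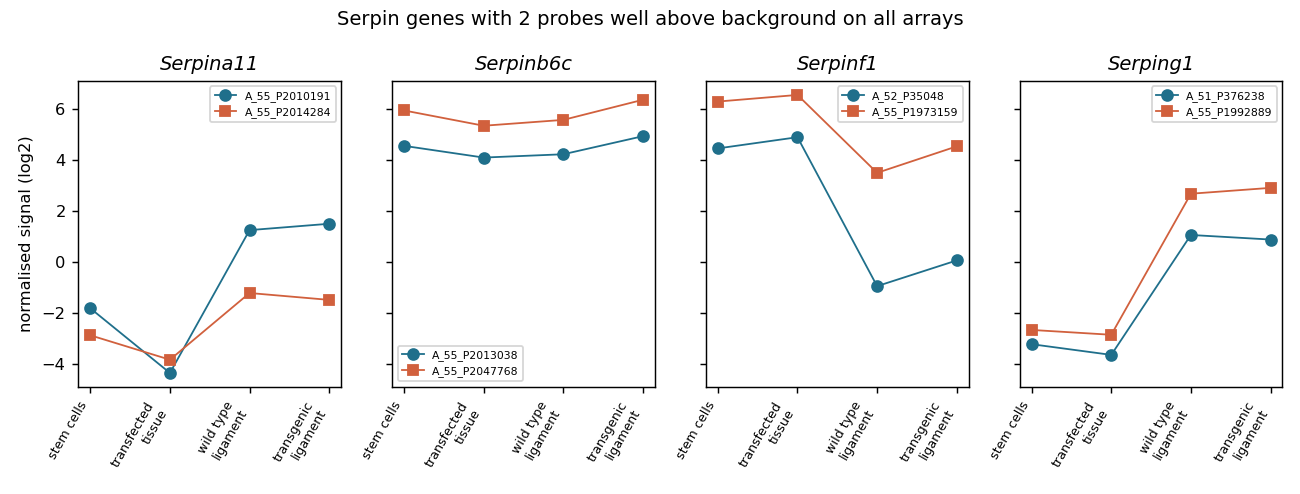
Normalised signal (log2) on the 4 arrays of the serpin genes with 2 probes well above background on all arrays, 1 line per probe. Both probes of each gene place cells and ligament in the same order, but the distance between cells and ligament differs by probe. It differs by 2.61 for Serpinf1 in wild type ligament compared with stem cells. In transfected tissue against wild type ligament it differs by 2.99 for Serpina11 and 2.79 for Serpinf1. The Serpinb6c probes run in parallel.

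On chromosome 12, clade A held most of the serpins that were lower in transfected tissue. The Serpina1 genes encode alpha-1-antitrypsins, whose classic target is neutrophil elastase. In transfected tissue against stem cells, 4 of 5 were lower and 0 higher, where 13.3% of all genes were lower and 10.9% higher. Serpina1c read -2.39 in stem cells and -5.40 in transfected tissue (8.06-fold lower), and was not well above background in either ligament. Serpina1a read -2.65 and -5.41 in the cells (6.78-fold lower), was likewise dim in both ligaments, and its probe shares the sequence shown above with that of Serpina1c. Serpina1e read -2.94, -4.77, -2.42 and -2.41, so that stem cells and the ligaments lay close together and transfected tissue alone was low (-1.83). This pattern rests on 1 probe: the other Serpina1e probe read -2.42 in stem cells and was not well above background on the other 3 arrays, so that there stem cells alone were high. Serpina1f was at least 2.12-fold lower in transfected tissue, a call lost with quantile normalization (-0.89), with another centring and with the deposited value table, which would leave 3 of 5. The transfected tissue values of Serpina1a and Serpina1c lie just above the lowest measurable signal of that array, and over the alternative ways of processing the Serpina1c difference ranged from -3.01 to -2.18 and that of Serpina1a from -2.76 to -1.76. The other Serpina1a probe was not well above background in transfected tissue.

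The Serpina3 genes descend from the ancestor of a single human antichymotrypsin gene and differ from each other especially in the reactive loop. Of 11 on the array, 6 had a value in transfected tissue against stem cells, with 5 lower and 0 higher. Of all genes, 13.3% were lower and 10.9% higher there. In transgenic against wild type ligament 7 had a value, with 4 higher and 0 lower, where 6.29% of all genes were higher and 7.05% lower. Serpina3g, known as Spi2A, an intracellular inhibitor of lysosomal cathepsins in leukocytes, read 1.75 in stem cells, -2.95 in transfected tissue, -2.00 in the wild type and -2.35 in the transgenic ligament. Stem cells alone were high. It was 26.0-fold lower in transfected tissue and 13.4-fold lower in wild type ligament than in stem cells, and differed by -0.35 between the ligaments. Of the cysteine cathepsins, its target class, 0 of 5 with a value in culture and 0 of 7 in ligament differed by 2-fold or more with A.

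Serpina3n, a secreted acute-phase inhibitor of granzyme B and leukocyte elastase, read -1.63 in stem cells and -5.14 in transfected tissue. It was 11.4-fold lower in transfected tissue and was not well above background in either ligament. Serpina3i read -3.50 in stem cells and was dim in transfected tissue, at least 4.63-fold lower. In transgenic ligament it was measured at -2.70 and in wild type ligament it was dim, with a lower bound of 0.71 that does not reach 2-fold. The other Serpina3i probe, shown above beside that of Serpina3h, read -4.91 in stem cells. It was not well above background in transfected tissue or in either ligament.

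Serpina3h and Serpina3f moved in opposite directions with A in culture and in mice. Serpina3h read -1.67, -3.48, -2.06 and -0.44 in the order stem cells, transfected tissue, wild type and transgenic ligament. It was 3.50-fold lower in transfected tissue and 3.06-fold higher in transgenic ligament. Serpina3f read -1.93, -4.14, -1.96 and 0.07, 4.64-fold lower and 4.07-fold higher. These genes may not be separate observations: the probe representing Serpina3f is also listed with a Serpina3h accession, and in the files it lies 823 bases from the Serpina3h probe and 33.6 kb from the other Serpina3f probe. That other probe read -3.64 in stem cells and -5.39 in transfected tissue (-1.75) and was not well above background in either ligament. The lower value in culture was therefore seen on both Serpina3f probes, and the higher value in transgenic ligament on 1 of them.

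Among serpin genes measured on both ligament arrays, Serpina3b showed the largest difference. It read -3.19 in stem cells, -3.76 in transfected tissue, -1.76 in the wild type and 0.53 in the transgenic ligament, which was 4.89-fold above wild type and stood above the other arrays. Serpina3j was measured in transgenic ligament only, at -1.57, at least 3.58-fold above wild type. Serpina3c was measured in the ligaments only, at -2.31 and -2.90, and was at least 11.1-fold higher in wild type ligament than in stem cells. The part of the epidermis markers, which were higher in transgenic ligament as given above, in the values of Serpina3b, Serpina3f, Serpina3h and Serpina3j was not tested.

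**Figure D5:**
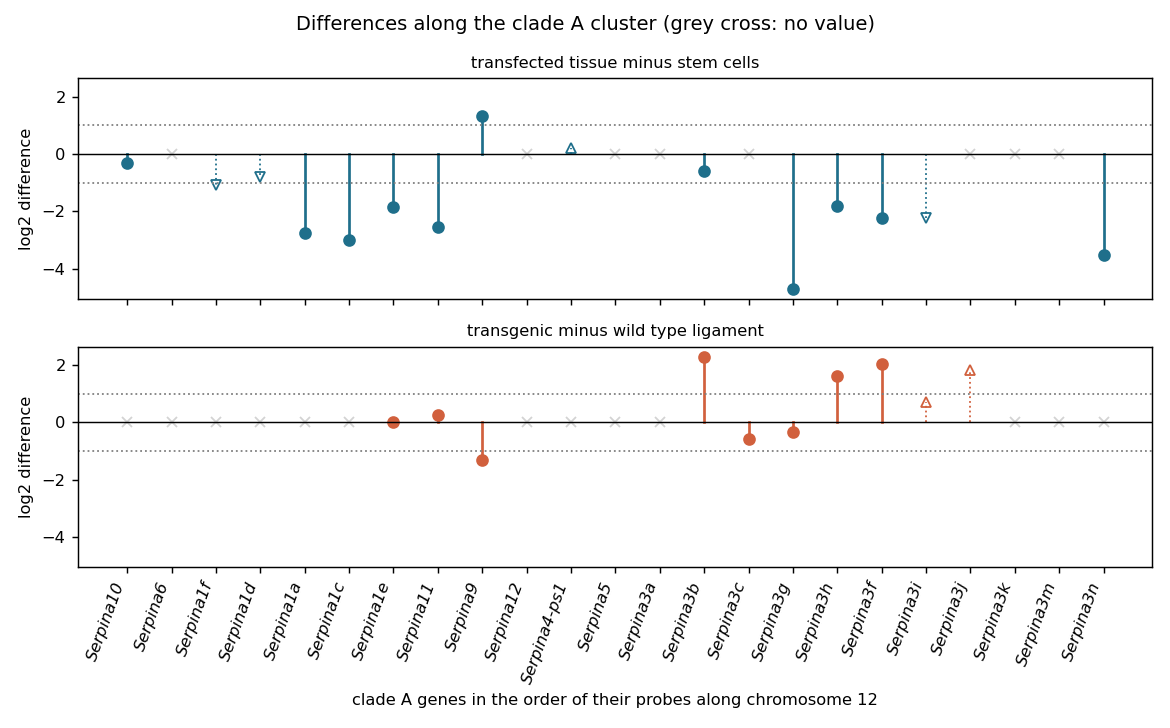
Log2 differences of the clade A genes in the order of their probes along chromosome 12, for transfected tissue minus stem cells (top) and transgenic minus wild type ligament (bottom); open triangles on dotted stems are bounds, grey crosses are genes with no value, and dotted lines mark 2-fold. Serpina1 and Serpina3 genes lie below 0 in the top panel, while Serpina3b, Serpina3h, Serpina3f and Serpina3j lie above 2-fold in the bottom panel.

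The promoters of the Serpina3 genes were searched for the letters TTCNNNGAA, the gamma-activated sequence to which STAT factors bind, which reads the same on both strands. Within 250 bases before the start, RefSeq promoters (GRCm38.p6) held it in 7.02% of all 32851 cases. Counted by gene, where a match in any of a gene's promoters suffices, 8 of 50 serpin genes with a promoter sequence held it. The share by promoter and the count by gene are thus unlike measures. By gene, it was present in 3 of 8 Serpina3 genes. These were Serpina3f, Serpina3g and Serpina3i. Serpina3a, Serpina3b, Serpina3c, Serpina3j and Serpina3n did not hold these letters in this window. The stretches around the match are shown so that the 3 paralogues can be compared; capitals mark the match, and all lie on the plus strand of chromosome 12.
Serpina3f chr12:104214373-104214481: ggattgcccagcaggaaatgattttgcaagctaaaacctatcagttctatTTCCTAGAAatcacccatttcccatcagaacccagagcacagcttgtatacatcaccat
Serpina3g chr12:104236064-104236146: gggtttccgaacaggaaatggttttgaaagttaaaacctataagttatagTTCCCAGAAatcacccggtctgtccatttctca
Serpina3i chr12:104262970-104263078: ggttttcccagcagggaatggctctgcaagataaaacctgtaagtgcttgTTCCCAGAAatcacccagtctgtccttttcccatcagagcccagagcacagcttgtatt
Set base by base on the match, Serpina3g and Serpina3i had 68 of 83 bases in common, Serpina3f and Serpina3g 57 of 83, and Serpina3f and Serpina3i 65 of 109. The 3 Serpina3 genes with the letters were each lower by 2-fold or more in transfected tissue than in stem cells. Of the Serpina3 genes without them, Serpina3n was also lower, Serpina3b was within 2-fold (-0.58) and the others had no value. As given above, 5 of 6 Serpina3 genes with a value were lower there, and the Serpina3f probe may measure Serpina3h. Of the other serpin genes with the letters, Serpina11 and Serpina1f were lower in that comparison and Serpinb6a was within 2-fold (-0.38). Serpinb2 and Serpinb9c had no value. A match describes the sequence and was not measured as a binding site. Whether the letters go with these differences was not tested.

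Serpina9 and Serpina11 lie between these groups of genes. Serpina9, known as centerin from germinal centre B cells, read -4.65 in stem cells, -3.31 in transfected tissue, 0.93 in the wild type and -0.40 in the transgenic ligament. Both ligaments lay above both cell samples, with wild type ligament 47.7-fold above stem cells. It was 2.52-fold higher in transfected tissue and 2.51-fold lower in transgenic ligament. Of 6 lymphoid markers on the array, 0 were higher and 4 lower in transgenic ligament, and their part in the Serpina9 value was not tested. Serpina11 read -1.83, -4.37, 1.24 and 1.49, so the ligaments were high and transfected tissue low, 5.80-fold below stem cells. Its other probe, which differs by 10 edits, gave -0.96 for the same comparison, within 2-fold, so the size of the Serpina11 difference rests on the probe used.

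The clade B genes on chromosome 1 include serpins of stratified epithelium. Of 12 on the array, 5 had a value in wild type ligament compared with stem cells and 5 were higher, where 37.7% of all genes were higher. Of these, 2 were measured on both arrays, Serpinb5 and Serpinb8. The other 3, Serpinb2, Serpinb3b and Serpinb10, were bounds. They were dim in stem cells and could therefore not come out lower. Serpinb5 encodes maspin, a non-inhibitory serpin of epithelial cells. It read -5.17 in stem cells, -1.20 in transfected tissue, 0.63 in the wild type and 2.33 in the transgenic ligament, lowest in stem cells and highest in transgenic ligament. It was 15.7-fold higher in transfected tissue than in stem cells and 3.25-fold higher in transgenic than in wild type ligament. The stem cell value lies near the lowest measurable signal of that array (-5.79). With a normexp background correction the log2 difference in culture was 2.42, against 3.97. Among the 23 serpin genes with a value in both comparisons with and without A, Serpinb5 was the 1 gene past 2-fold in the same direction in both. This pattern was not counted over all genes, so whether 1 of 23 is unusual is not known.

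Epidermis markers were set beside Serpinb5. In transfected tissue 2 of 8 were well above background, against 3 in stem cells, and 0 were higher and 1 lower between these samples. Lor, the cornified envelope protein loricrin, and Krt1, a keratin of the upper epidermis, were picked for their role after the values were seen; neither was well above background on either cell array. Between the ligaments 6 of 8 epidermis markers were higher, with Lor at 3.33 in wild type and 6.31 in transgenic ligament and Krt1 at -0.67 and 1.71. Their part in the 1.70 of Serpinb5 there was not tested.

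Serpinb7, an epidermal inhibitor of kallikrein proteases, read -5.06 in stem cells, -5.31 in transfected tissue and -1.40 in transgenic ligament. In wild type ligament it was not well above background, and transgenic ligament was at least 3.43-fold higher. Of 10 epidermal proteases, 8 had a value between the ligaments, with 5 higher and 0 lower: Klk5 differed by 2.16, Klk8 by 1.56 and Klk7 by 1.49. Serpinb3b and Serpinb3c belong to the squamous cell carcinoma antigen genes. Serpinb3b read -2.51 and -3.38 in wild type and transgenic ligament and was dim in the cells, at least 9.70-fold lower in stem cells than in wild type ligament. Serpinb3c was marked well above background in transgenic ligament only. Its probe is printed on the array 10 times, and the spots averaged -3.36 ± 0.217 (SD over 10 spots of 1 array) in transgenic and -4.70 ± 0.456 (SD over 10 spots of 1 array) in wild type ligament. All 10 spots were well above background in the former and 0 in the latter. The bound for the gene, 0.06, was nevertheless close to 0, because the weakest measurable signal on the wild type array lay almost as high as its transgenic value.

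Serpinb10 encodes bomapin, a nuclear serpin of myeloid precursors; the scanner files call its probe Serpinb10-ps, a pseudogene name, and RefSeq lists its accession under Serpinb10. The probe was measured in ligament only, at -2.42 in wild type and -2.18 in transgenic (0.24). It was at least 10.3-fold higher in wild type ligament than in stem cells. Between the ligaments 8 of 8 neutrophil markers were lower in the transgenic sample, while Serpinb10 was within 2-fold. Serpinb8, an inhibitor of furin-like proteases, read 1.71, 1.86, 3.02 and 2.62, so that the ligaments lay somewhat above the cells (2.49-fold in wild type ligament compared with stem cells) and samples with and without A lay close together.

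Clade B on chromosome 13 held serpins that differed little between samples with and without A and some that differed more. In transfected tissue against stem cells 10 of 15 had a value, with 2 higher, each a bound, and 1 lower. Of all genes, 10.9% were higher and 13.3% lower there. Serpinb6a, a cytosolic inhibitor of cathepsin G and other trypsin-like proteases, read 5.93, 5.54, 5.65 and 6.48 in the order used above. Its differences were -0.38 in culture and 0.83 between the ligaments, within 2-fold. The representative Serpinb6c probe, which matches the Serpinb6a probe at 39 of the 42 bases where they overlap, gave -0.60 and 0.79. The other Serpinb6c probe, whose window is shown above, gave -0.46 and 0.71. The other members of this group were Serpinb6d, with -0.45 and 0.52, Serpinb6b, with 0.41 and -0.14, and Serpinb6e, with -0.09 and 1.40. Serpinb6e, at -2.16 in wild type and -0.76 in transgenic ligament, was thus the 1 gene of 5 past 2-fold there.

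Serpinb1a encodes an inhibitor of neutrophil elastase, cathepsin G and proteinase 3 that protects cells carrying these enzymes. It read 3.24 in stem cells, 1.05 in transfected tissue, 2.11 in the wild type and 2.05 in the transgenic ligament. Transfected tissue was the lowest, 4.59-fold below stem cells, and the ligaments were alike (-0.06). Of 5 neutrophil proteases, 3 were lower and 0 higher in transgenic than in wild type ligament, Mmp8 by -2.72, Prtn3 by -1.97 and Elane by -1.39. Mmp8 is not among the Serpinb1a targets named above. Prtn3 encodes proteinase 3 and Elane neutrophil elastase. Ctsg, the cathepsin G gene, added after its value was seen, was within 2-fold (-0.80). Serpinb1b differed by 0.04 in culture and was dim in ligament, and Serpinb1c was measured in transfected tissue only, at -4.67, at least 2.17-fold above stem cells.

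Serpinb9 encodes the intracellular inhibitor of granzyme B. It read -0.09 in stem cells and 0.33 in transfected tissue, was dim in wild type ligament and stood at -3.04 in transgenic ligament. The cells were high and the ligaments low, with wild type ligament at least 9.48-fold below stem cells. Serpinb9b was measured in transfected tissue only, at -4.23, at least 2.94-fold above stem cells, and the 5 other Serpinb9 genes on the array were detected nowhere. Granzyme B itself was not well above background on any array.

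A few further members were not called in any comparison. Serpina10, the protein Z-dependent inhibitor of factor Xa, read -4.58 and -4.89 in stem cells and transfected tissue. Serpini1, which encodes neuroserpin, an inhibitor of tissue plasminogen activator, read -5.60 and -5.18. Both were dim in the ligaments. Serpina1d, on a probe also listed for Serpina1b, was measured in stem cells only, at -4.92, at least 1.73-fold above transfected tissue. Serpina4-ps1, a pseudogene, was measured in transfected tissue only, at -5.56. For both, a lower bound short of 2-fold leaves the size of the difference unknown.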

How the data were processed

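RNA of 4 samples, 1 per group, was labelled with Cy3 and hybridised by the authors. Per the file headers, the scanner files hold spot intensity as background-subtracted processed signal on a linear scale, with probe positions on mm9, made by Feature Extraction 10.7.1.1; the submitters' processing notes name 9.5.1.1. The deposited value table also holds intensity, normalized between arrays by a method not given in the sources used here. Spots marked as outliers (155 to 281 an array) were dropped, no serpin spot was saturated, and repeat spots were averaged. Log2 signal minus the 75th percentile of the array gave the normalised signal. Probes were named through RefSeq accessions where possible (26761 of 39429), each gene took the values of its brightest probe on average, and promoters came from RefSeq. A gene was compared where well above background on at least 1 array. Against a dim value the fold is a lower bound ("at least"), taken from the dim probe itself or from the weakest signal marked well above background there, whichever is higher. Calls start at 2-fold; the number of arrays limits the precision. Any serpin detected on at least 1 array could be named, and of each other list up to 3 genes a comparison. The values of 1 serpin gene, included in the counts, are not reported here. Members and lists were chosen with earlier results of these data known. Python 3.11.15, pandas 2.3.3, R 4.3.3 and limma 3.58.1 (normexp, offset 50) were used, and the calls were tested on simulated data. The alternatives tried were normexp, quantile normalization, another centring, the deposited table, stricter and no filters, the mean of probes, and outlier spots kept.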

Additional observations from a re-analysis of the deposited data

Results flagged for a closer look

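With A, 3 serpin genes differed by 2-fold or more in opposite directions in culture and in mice, of 23 with a value in both comparisons, which share no array. Serpina3f differed by -2.21 in transfected tissue against stem cells and by 2.02 in transgenic against wild type ligament. Serpina3h differed by -1.81 and 1.61, and Serpina9 by 1.34 and -1.33. The difference between the culture and the mouse comparison was not tested, since each rests on 1 array per group. With a normexp background correction Serpina9 in culture was 0.46, and Serpina3h between the ligaments fell just short of 2-fold. Serpina3f and Serpina3h may be 1 observation, because the Serpina3f probe is also listed with a Serpina3h accession. Among all 14539 genes with a value in both comparisons, 143 (0.984%) were lower in culture and higher in ligament, and 114 (0.784%) the reverse.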

How the results depend on the processing

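Under 8 alternatives the 65 called differences of single serpin genes never changed direction. Calls that held under every alternative giving them a value were 12 of 16 in transfected tissue against stem cells and 4 of 9 between the ligaments. They were 16 of 20 in wild type ligament compared with stem cells and 14 of 20 in transfected tissue against wild type ligament. A call that is a bound has no value where both arrays must be well above background, so that alternative could not test it. Counts moved by over 1.5 times as follows. With normexp, 1 serpin was higher in transfected tissue against stem cells (Serpina9, Serpinb1c and Serpinb9b were lost) and 4 in transgenic against wild type ligament (Serpina3h, Serpina3j, Serpinb6e and Serpinb7 were lost). With genes well above background on both arrays only, 2 were higher in transfected tissue against stem cells and 7 in wild type ligament compared with stem cells. With no filter, 9 and 38 were higher in these comparisons, and 41 lower in transfected tissue against wild type ligament, most of them not detected. Lower genes between the ligaments numbered 2 with quantile normalization, 2 with the deposited table and 2 with no filter, against 1 (Serpinb3b was -1.12 with quantile normalization). Quantile normalization moved the median of all measured genes from 0.27 to -0.09 in wild type ligament compared with stem cells and from -0.38 to 0.12 in transfected tissue against wild type ligament. Serpinf1 between the ligaments was 0.98 with the deposited table, short of 2-fold. Signal over background limits what ligament arrays can show for dim serpins. No paired analysis was possible because each group has 1 array.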

Other observations

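Protease inhibitors of other families were measured beside the serpins, as a list of 20 genes. In transfected tissue against stem cells 12 had a value, of which 2 were higher and 4 lower, and between the ligaments 1 was higher and 2 lower of 14. Slpi, a secreted inhibitor of leukocyte elastase, read 4.66 in stem cells, 1.25 in transfected tissue, 2.61 in the wild type and -0.17 in the transgenic ligament, lower with A in culture (-3.40) and in mice (-2.78). Cst6, a cystatin of epidermis, differed by 3.54 in transfected tissue against stem cells, and Tfpi, the tissue factor pathway inhibitor, by -1.46.

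Among 12 coagulation genes, the targets and regulators of antithrombin-type serpins, 7 had a value in transfected tissue against stem cells, of which 2 were higher and 1 lower, and 3 were higher and 1 lower of 8 between the ligaments. F10, the factor X gene, differed by 2.36 in transfected tissue against stem cells. F2r, a thrombin receptor, differed by 2.00 and F5, a procofactor, by -1.40 in transgenic against wild type ligament. Antithrombin and heparin cofactor II were detected on no array.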
